A study of Mus musculus with 6 samples.

Results

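Tenofovir was set against its ethanol vehicle in 3T3-L1 cells, a mouse preadipocyte line that turns into fat cells under hormones. The comparison is the array labelled tenofovir minus the array labelled ethanol, 2 of the 6 arrays in the study. Every difference below is a tenofovir value minus an ethanol value on the log2 scale, so 1 unit is a factor of 2. It held few large differences. Of 12041 detected genes, 10 lay at least 1.5-fold apart and 0 lay at least 2-fold apart. Most of 73 gene lists had medians near 0, and 12 showed a small displacement. Nuclear genes of complex I, ATP synthase and the mitochondrial ribosome were mostly higher on the tenofovir array, while clock genes, collagens and targets of the transcription factor ATF4 were mostly lower.

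All 6 groups were differentiated for 2 days with insulin, 3-isobutyl-1-methylxanthine and dexamethasone, the last a synthetic glucocorticoid, and then kept in medium with insulin and the treatment for 5 days. The tenofovir group received 1 µM tenofovir and the vehicle group 0.1% ethanol. The labels name the agent tenofovir and abbreviate it TDF, and the sources used here do not say whether the parent drug or an ester was used. The other 4 groups all received 20 µM ritonavir, an HIV protease inhibitor: alone, with 0.1% DMSO, with 100 µM c9,t11-CLA or with 100 µM t10,c12-CLA, which are isomers of conjugated linoleic acid. RNA of 4 replicate experiments was pooled for each group before 1 Affymetrix array was hybridised. The spread between those experiments is therefore not in the data, no difference was tested, and having 1 array a group limits how precise any value is. A pooled culture also cannot tell fewer cells of a type from less RNA per cell.

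Tenofovir is a nucleotide analogue that blocks the reverse transcriptase of HIV. It enters cells through anion transporters or as an ester, is phosphorylated by cellular kinases to a diphosphate that resembles dATP, and leaves through efflux pumps. Older nucleoside analogues can inhibit polymerase gamma, the enzyme that copies mitochondrial DNA, and deplete that DNA in fat and muscle, and tenofovir is known as a weak substrate of this enzyme.

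The ethanol array stood apart on control probe sets. The 24 probe sets for poly-A RNAs, which are added before amplification, were all higher on the tenofovir array, by 0.13 to 0.46 with a median of 0.33. Ethanol was the lowest of the 6 arrays for 23 of these 24. The 3 probe sets for 18S ribosomal RNA read 11.21, 11.25 and 10.87 with ethanol and 11.62, 12.12 and 11.55 with tenofovir, and ethanol was the lowest of the 6 arrays for each. Hybridisation controls, which are added after amplification, did not share this: 7 of 18 were higher, 11 were lower and the median was -0.016. The 3 probe sets for actin differed by -0.083 to -0.052. The gap between the 3′ and the 5′ actin probe set, a measure of RNA integrity and of amplification length, was 0.32 with ethanol and 0.35 with tenofovir. The part of the ethanol array's control readings in the differences below was not tested.

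**Figure D1:**
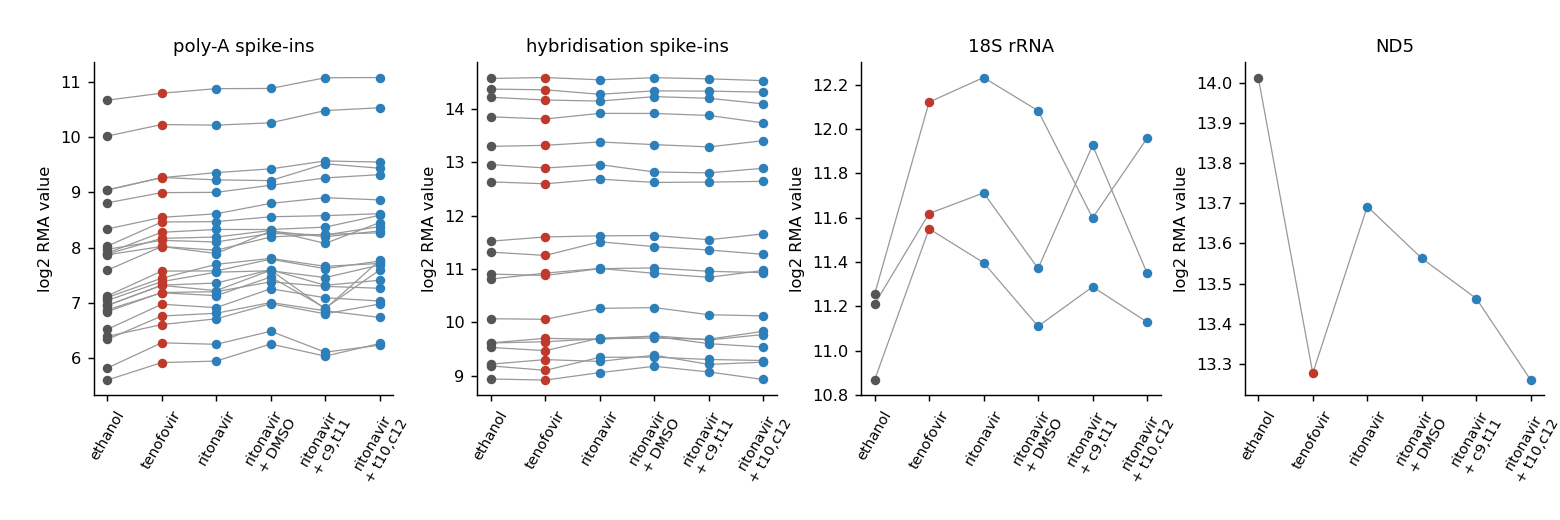
Log2 value of control probe sets (poly-A spike-ins, hybridisation spike-ins, 18S ribosomal RNA) and of ND5 on each of the 6 arrays, with 1 point per probe set and array and a line joining the points of 1 probe set. The ethanol array (grey) is the lowest for all 3 probe sets of 18S ribosomal RNA and the highest for ND5, at 14.01, and the tenofovir array (red) reads 13.28 for ND5.

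The 2 arrays correlated at r = 0.998 over 45101 probe sets. A gene was represented by its brightest probe set and counted as detected if it reached 6.55, the median of the table, on either array. The differences had a median of -0.011, and 95% of them lay between -0.26 and 0.26. By direction, 5553 genes (46.1%) were higher on the tenofovir array and 6474 (53.8%) lower. At least 0.32 apart, the smaller of the thresholds used for counting, were 129 genes upward (1.07%) and 141 downward (1.17%). Dim genes supplied most of these: 164 of the 270 lay in the lowest of 4 equal groups by mean level, and 20 lay in the highest. Of the 270, 71 fell below 6.55 with ethanol or with tenofovir and so passed the filter through their higher value alone. Raising such low values to 6.55 left 95 genes upward and 114 downward. With the probe sets of a gene averaged, the counts were 79 and 74. As a measure of scale, a pair of arrays that shares neither of these 2, ritonavir with c9,t11-CLA against ritonavir with DMSO, had 292 genes higher and 126 lower by that size. Its robust SD was 0.135, against 0.112 for tenofovir against ethanol.

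**Figure D2:**
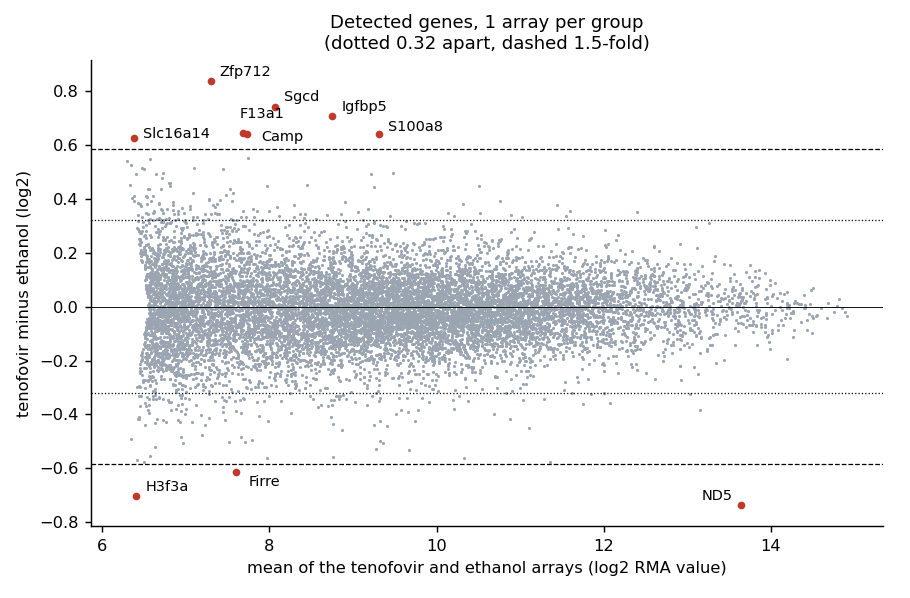
Difference between the tenofovir and the ethanol array (log2) against the mean of both arrays (log2 RMA value), with 1 point per detected gene (12041). The spread narrows with level, and the 10 named red points lie past the dashed lines at 1.5-fold, 7 above and 3 below.

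A total of 10 genes (0.083% of those detected) differed by at least 1.5-fold, and each rested on 1 detected probe set. A stricter filter, at 8.77, left 3 of that size, and no filter gave 45. The brightest by far was ND5, a subunit of respiratory complex I and the only gene of the mitochondrial DNA with a named probe set here. It read 14.01 with ethanol and 13.28 with tenofovir, a difference of -0.74 or 1.67-fold lower. With ritonavir alone ND5 read 13.69, and the other 3 arrays with ritonavir read between 13.26 and 13.56, so the tenofovir value lay within the range of the rest and the ethanol value above it.

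Zfp712, a zinc finger gene, had the widest upward difference, 6.88 with ethanol and 7.72 with tenofovir (0.84, or 0.43 with its probe sets averaged). Here too ethanol was the array that stood apart, as the 4 arrays with ritonavir read 7.73 to 8.02. By contrast, Sgcd, which encodes delta-sarcoglycan of the dystrophin complex, read 7.70 with ethanol, 8.44 with tenofovir (0.74) and 7.52 to 7.89 on the arrays with ritonavir, so that tenofovir was the highest of the 6. Igfbp5, a secreted binding protein for insulin-like growth factors, read 8.40 and 9.11 (0.71), and again no other array reached the tenofovir value.

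Among the 10, 3 genes known from blood and immune cells were also past 1.5-fold upward, and tenofovir was the highest of the 6 arrays for each. F13a1, the A subunit of coagulation factor XIII, read 7.37 with ethanol and 8.01 with tenofovir, against 5.27 to 5.85 with ritonavir. S100a8, a calcium-binding protein abundant in neutrophils, read 8.99 and 9.63 (0.64). Camp, the cathelicidin antimicrobial peptide, read 7.41 and 8.05 (0.64). Other neutrophil genes, looked up after these values were seen, did not share the difference: S100a9, the partner of S100a8, was under the detection level at 5.79 on both arrays, Ngp read 6.13 and 5.95, and Ltf read 6.70 and 6.82. Ptprc, which encodes the leukocyte antigen CD45, was under the level on both arrays at 4.16 and 3.89.

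The remaining members of this group were dim. Slc16a14, a transporter of the monocarboxylate family, read 6.07 with ethanol, under the detection level, and 6.69 with tenofovir (0.63, or 0.14 with values raised to the level). Firre, a long noncoding RNA of the X chromosome, read 7.91 and 7.30 (-0.61, or -0.31 with its probe sets averaged), the latter being the lowest of the 6 arrays. H3f3a, a gene of histone H3.3, read 6.76 and 6.06 (-0.70), with the tenofovir value under the level, and differed by -0.21 when that was raised to it.

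Genes that handle the drug differed little between the 2 arrays. Of 11 detected transporters and esterases on a list for tenofovir and its esters, 3 were higher and 8 were lower (46.1% and 53.8% over all genes), and the median was -0.046. Abcc4, an efflux pump for tenofovir, read 8.71 with ethanol and 8.84 with tenofovir (0.13). Ces1d, a carboxylesterase of fat and liver, had the widest difference on the list, 8.66 and 8.97 (0.31), but its 3 probe sets ran from -0.066 to 0.31. Nucleotide kinases had a median of -0.0056, with 7 of 14 higher. Nme1, a nucleoside diphosphate kinase, read 11.87 and 11.86, with a difference of 0.13 on a second probe set. Guk1, the guanylate kinase, read 9.67 and 9.84 (0.16).

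The machinery that copies and transcribes mitochondrial DNA was likewise near 0 as a group: 13 of 24 detected members were higher, with a median of 0.021. The catalytic subunit of polymerase gamma, Polg, read 10.26 with ethanol and 10.18 with tenofovir (-0.084), and its 3 probe sets ran from -0.10 to 0.021. The accessory subunit Polg2 read 8.64 and 8.70 (0.056). The helicase Twnk differed by 0.022 and the packaging factor Tfam by 0.019. Polrmt, the mitochondrial RNA polymerase, was the only one to reach 0.32, at 10.37 and 10.02 (-0.35). A second Polrmt probe set read 9.53 and 9.41 (-0.12), on the same side and smaller. In the other direction, Tefm, the elongation factor of that polymerase, read 9.30 and 9.54 (0.24). Among enzymes that supply deoxynucleotides, 7 of 19 were higher, with a median of -0.014. Rrm2b, a ribonucleotide reductase subunit, differed by 0.12 on its brightest probe set and -0.00062 on the other. The mitochondrial kinases Tk2 and Dguok differed by -0.014 and -0.030.

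Nuclear genes of the respiratory chain were mostly higher with tenofovir, in contrast to ND5. Over complexes I to V, 65 of 79 detected nuclear subunits (82.3%) were higher, against 46.1% of all genes, and their median was 0.050 against -0.011. The sizes were small. A list was counted as displaced if its median lay at least 0.05 from that of all genes and at least 75% of 5 or more detected members lay on that side of 0. By this rule complex I (29 of 34 higher, median 0.052) and ATP synthase (16 of 18, median 0.077) were displaced upward. Complexes II (3 of 4, median 0.067), III (6 of 9, median 0.073) and IV (12 of 15, median 0.036) were not. Complex II had too few detected members and complex III too small a share, although both medians were above that of complex I. With the probe sets of each gene averaged, ATP synthase had a median of 0.048 and no longer met the rule, while complex I did at 0.054.

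Probe sets for the same subunit often gave the same side. Ndufs4, an accessory subunit of complex I, read 11.03 with ethanol and 11.30 with tenofovir, and its 3 probe sets differed by 0.28, 0.21 and 0.18. Ndufa7 read 12.80 and 13.03, and all 5 of its probe sets were higher, by 0.11 to 0.25. Ndufb8 read 12.49 and 12.71 (0.22), with a second probe set at 0.29. Of 19 complex I genes with several detected probe sets, 13 had all of them higher and 1 all lower, against 18.2% and 27.3% of all genes with several detected probe sets. The widest value of the lists was Atp5e, the epsilon subunit of ATP synthase, which read 12.22 and 12.57 (0.35) on 1 probe set, while the arrays with ritonavir read 12.38 to 13.01. Atp5j2 shows the limit of such values, since its 3 probe sets differed by 0.11, 0.14 and -0.29.

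Mitochondrial ribosomal proteins, which build the ribosome that translates the genes of mitochondrial DNA, formed the largest displaced list: 61 of 76 detected members were higher, with a median of 0.077. Mrpl41 read 10.78 with ethanol and 11.07 with tenofovir, and its probe sets differed by 0.29 and 0.22 (0.18 as the mean of all its probe sets, undetected ones included). Mrpl50 read 10.05 and 10.32, with differences of 0.27 and 0.24, and on the brighter of these both values were above every array with ritonavir. Against the direction of the list, Mrpl52 read 11.78 and 11.46 (-0.32), though its other 2 probe sets differed by 0.049 and 0.037. Cytosolic ribosomal proteins had a median of 0.013 with 28 of 46 higher, and the proteasome 0.037 with 29 of 45 higher.

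Gene size moved with this direction, though not over its whole range. With genes divided into 10 equal groups by genomic span (exons and introns), 55.0% of the shortest group were higher on the tenofovir array. The share was 41.0% in group 7, counted from the shortest. It was 41.4%, 45.5% and 46.4% in groups 8, 9 and 10, against 46.1% of all genes. In the 3 shortest groups lay 25 of 34 complex I genes, 16 of 18 ATP synthase genes and 55 of 76 mitochondrial ribosomal genes. Of all 3597 detected genes in those 3 groups 51.0% were higher, with a median of 0.0026. Collagens had 0 of 25 genes in those 3 groups. Their median group was 9, in which 45.5% of all genes were higher, with a median of -0.012. The part of gene size in the list medians was not tested. In the independent pair of arrays, c9,t11-CLA against DMSO, the mitochondrial ribosome had a median of -0.10 and complex I -0.018.

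**Figure D3:**
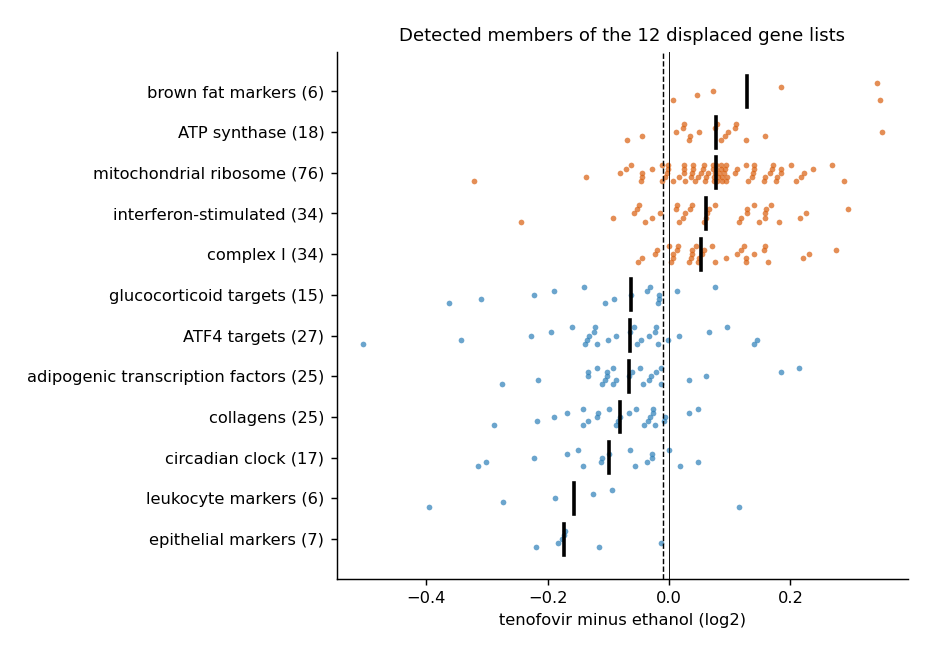
Difference between the tenofovir and the ethanol array (log2) for each detected member of the 12 displaced lists, with the number of detected members in brackets and the list median as a black bar. The dashed line is the median of all genes, -0.011. The 5 lists in orange have medians from 0.052 to 0.13 and the 7 in blue from -0.17 to -0.062.

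Markers of brown and beige fat, in which mitochondria burn fuel for heat, were higher for 6 of 6 detected genes of 14 measured. Their median was 0.13, or 0.087 with undetected members included, though the list is short and most values were small. Cox7a1, a subunit of cytochrome oxidase found in muscle and brown fat, read 9.97 with ethanol and 10.31 with tenofovir (0.35). Cox8b, another such subunit, read 8.68 and 9.02 (0.34). For both, tenofovir was above every array with ritonavir, as was ethanol for Cox7a1 but not for Cox8b. Both genes also stand in the complex IV list. Ppargc1a, a coactivator of mitochondrial genes, read 8.47 and 8.51 on its brightest probe set (0.047). The other 4 probe sets of Ppargc1a differed by 0.16, 0.22, 0.27 and 0.51, so that 5 of 5 lay on the same side. Those at 0.27 and 0.51 read 6.45 and 6.23 with ethanol, under the detection level. They were detected through their tenofovir values alone and so could only lie on the higher side. Prdm16, a regulator of brown fat identity, differed by 0.073 and Ebf2 by 0.18 on one probe set and -0.17 on the other.

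Most markers of mature fat cells read close to the same on both arrays, many of them near the top of the scale. Pparg, the nuclear receptor that drives fat cell formation, read 12.97 with ethanol and 12.95 with tenofovir, and Cebpa, its partner, 12.18 and 12.21. Adiponectin (Adipoq) read 14.79 and 14.82, the fatty acid synthase Fasn 12.81 and 12.83, and the desaturase Scd1 14.76 and 14.74. Values this close to the top of the scale, 15.01, can be compressed. Fabp4, the fatty acid-binding protein of fat cells, differed by -0.019 on its brightest probe set, at 14.89 with ethanol, but by -0.26, -0.39 and -0.52 on the 3 dimmer ones. Over the 21 detected adipocyte markers 12 were higher, with a median of 0.020. The widest was Car3, a carbonic anhydrase abundant in fat, at 13.10 and 13.41 (0.31), and all 3 of its probe sets were higher. Leptin (Lep) was near the detection level at 6.94 and 7.10. Cpt1a, which admits fatty acids to mitochondria, differed by -0.14 on its brightest probe set and 0.033 on the other.

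Around this core, adipogenic transcription factors were displaced slightly downward, with 21 of 25 detected members lower and a median of -0.066, or -0.043 with probe sets averaged, which did not meet the rule. Gata3, a factor of preadipocytes, read 6.74 and 6.46 (-0.28) and Mlxipl, the sugar-responsive factor ChREBP, 6.86 and 6.64 (-0.22), both near the detection level. Klf15, a glucocorticoid-responsive factor of mature fat cells, ran the other way at 10.89 and 11.10 (0.21). Slc2a4, the insulin-responsive glucose transporter, had 1 probe set at 11.84 and 11.72 (-0.12) and another at 10.51 and 10.70 (0.19), so its direction was not settled.

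Circadian clock genes were lower in 15 of 17 detected cases, with a median of -0.099, the lowest of the lists with more than 10 detected members. Averaged over the probe sets of each gene the median was -0.036, and the rule was not met. The clock is a feedback loop in which Arntl and Clock activate the Per and Cry genes through E-boxes, whose core letters are CACGTG, and Per and Cry proteins shut that activity down. Per2 read 7.71 with ethanol and 7.40 with tenofovir (-0.32), and its second probe set 6.88 and 6.46 (-0.42). That second probe set was under the detection level with tenofovir and was detected through its ethanol value alone. The mean of all Per2 probe sets, undetected ones included, was -0.20. The output factor Dbp read 10.87 and 10.57 (-0.30), with -0.075 on a second probe set. Per1 read 9.83 and 9.61 (-0.22) and Arntl 8.32 and 8.15 (-0.17), each on 1 probe set. For Dbp the tenofovir value was under all 5 other arrays, whereas for Per1, Arntl and the brighter probe set of Per2 both values lay above the 4 arrays with ritonavir. Clock itself was on the other side, at 9.79 and 9.81 (0.019), with its other probe sets at 0.20 and 0.15.

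To show where the shared element of this loop lies, promoter windows of clock genes are printed with the E-box in capitals. They come from RefSeq on build GRCm38.p6, hold 300 bases around the start of a transcript, most of them before it, and are read 5′ to 3′ on the strand of the gene. The motif is a palindrome and so is the same on both strands.
Per1, chr11:69098699-69098998 (+ strand): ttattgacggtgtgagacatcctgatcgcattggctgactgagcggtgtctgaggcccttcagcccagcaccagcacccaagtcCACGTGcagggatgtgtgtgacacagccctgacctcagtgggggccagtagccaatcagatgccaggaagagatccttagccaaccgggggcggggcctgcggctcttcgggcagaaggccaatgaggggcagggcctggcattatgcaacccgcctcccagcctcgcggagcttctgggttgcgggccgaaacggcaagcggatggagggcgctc
Cry1, chr10:85185005-85185304 (- strand): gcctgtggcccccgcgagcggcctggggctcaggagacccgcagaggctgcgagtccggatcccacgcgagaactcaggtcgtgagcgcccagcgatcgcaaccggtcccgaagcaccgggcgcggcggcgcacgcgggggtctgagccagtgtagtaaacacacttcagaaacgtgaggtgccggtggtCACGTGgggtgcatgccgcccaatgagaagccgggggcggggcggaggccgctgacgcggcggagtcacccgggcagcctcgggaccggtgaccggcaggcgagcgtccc
Ciart, chr3:95882179-95882478 (- strand): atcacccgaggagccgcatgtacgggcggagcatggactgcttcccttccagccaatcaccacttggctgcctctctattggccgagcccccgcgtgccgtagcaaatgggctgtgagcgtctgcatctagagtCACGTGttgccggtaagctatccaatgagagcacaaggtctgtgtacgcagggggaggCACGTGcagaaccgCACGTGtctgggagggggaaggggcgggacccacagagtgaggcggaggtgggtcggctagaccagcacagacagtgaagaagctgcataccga

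A window was found for 14 of the 17 detected clock genes, and 4 of these held an E-box in at least 1 window: Per1, Cry1, Ciart and Tef. Over all 27025 genes with a window, 8.09% did. An E-box was no less frequent in ATP synthase, a list displaced upward, with 5 of 16 genes, while complex I had 2 of 30 and the mitochondrial ribosome 5 of 67. Ciart, a repressor of the clock, holds 3 E-boxes in the window shown and read 8.28 on both arrays. Cry1 and Tef hold 1 in a window and differed by -0.099 and -0.11. The letters are a description of these windows and say nothing of occupancy.

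The same was done for ATP synthase with CGCATGCG, the core of the sites of NRF1, a factor that binds many nuclear genes for mitochondrial proteins. The core is in capitals in the windows of Atp5k and Atp5l, and Atp5l also holds an E-box in capitals.
Atp5k, chr5:108434350-108434649 (- strand): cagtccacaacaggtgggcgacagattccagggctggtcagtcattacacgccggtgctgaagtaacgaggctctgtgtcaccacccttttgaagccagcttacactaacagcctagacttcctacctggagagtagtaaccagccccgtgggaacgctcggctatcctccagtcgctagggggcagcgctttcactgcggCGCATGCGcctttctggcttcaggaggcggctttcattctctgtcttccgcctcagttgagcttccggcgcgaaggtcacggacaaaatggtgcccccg
Atp5l, chr9:44920693-44920992 (- strand): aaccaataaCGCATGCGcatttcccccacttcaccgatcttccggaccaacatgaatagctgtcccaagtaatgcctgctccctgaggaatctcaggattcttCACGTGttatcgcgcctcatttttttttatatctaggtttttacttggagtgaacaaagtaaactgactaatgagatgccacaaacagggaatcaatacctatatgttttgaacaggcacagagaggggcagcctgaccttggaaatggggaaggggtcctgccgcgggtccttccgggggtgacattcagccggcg

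This palindromic core stood in a window of 4 of 16 ATP synthase genes, 1 of 30 complex I genes and 7 of 67 mitochondrial ribosomal genes, against 2.07% of all genes with a window. Of the 4 ATP synthase genes, Atp5l read 12.88 with ethanol and 13.03 with tenofovir (0.16). Atp5k and Atp5j differed by 0.079 and 0.075, and Atp5g2 by -0.069, one of 2 members that were lower. Members with and without the core were thus found on the higher side, and Atp5e, whose difference was the widest, does not hold it in its window.

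Glucocorticoid targets were lower in 13 of 15 cases, with a median of -0.062, or -0.046 after quantile normalization was repeated, which did not meet the rule. Dexamethasone was part of the mix used in every group before treatment. Sgk1, a hormone-induced kinase, read 10.38 with ethanol and 10.07 with tenofovir (-0.31). Zbtb16, a zinc finger regulator, read 8.93 and 8.56 (-0.36), but its other probe sets differed by -0.10 and 0.17. Fkbp5, a co-chaperone of the receptor, read 10.13 and 9.94 (-0.19), with a second probe set at -0.27. Per1 is also on this list. The largest upward member of the list was Hsd11b1, which regenerates active glucocorticoid, at 13.79 and 13.87 (0.076). Klf15, named above as glucocorticoid-responsive, is not on this list and was higher by 0.21.

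Collagens were lower in 23 of 25 detected cases, with a median of -0.080, and of the 14 with several detected probe sets 9 had all of them lower, against 27.3% of all such genes. With undetected members included the median was -0.029. The fibrillar genes that make up most of the protein differed little: Col1a1 read 12.61 and 12.49 (-0.12) and Col3a1 14.54 and 14.44 (-0.10), both with a second probe set lower too. Col9a1, a cartilage collagen, read 7.35 and 7.07 (-0.29) and Col27a1 8.94 and 8.73 (-0.22). Preadipocyte markers had a median of -0.072 with 11 of 17 lower. Pdgfrb, a growth factor receptor of fibroblasts, read 11.17 and 10.97 (-0.20), while S100a4, a fibroblast protein, read 11.90 and 12.13 (0.23). Other matrix genes did not follow the collagens: 19 of 30 were higher, with a median of 0.025.

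Targets of ATF4, which raises amino acid synthesis and uptake under stress, were lower in 22 of 27 cases, with a median of -0.065, and did not meet the rule with probe sets averaged. Aldh18a1, an enzyme of proline synthesis, was lower on all 5 probe sets, with differences from -0.26 to -0.17, and read 11.61 with ethanol and 11.41 with tenofovir on the brightest. Shmt2, the mitochondrial serine hydroxymethyltransferase, read 10.55 and 10.32 (-0.23) and was lower on all 4. Slc7a5, an importer of large amino acids, read 11.46 and 11.11 (-0.34) on 1 probe set. Sesn2, a stress-induced brake on mTORC1, read 9.62 and 9.11 (-0.50), with a second probe set at -0.11. The stress factor Ddit3 shows opposite values: 11.99 and 12.09 (0.095) on one probe set, 7.94 and 7.42 (-0.51) on the other. For ER chaperones and unfolded protein genes, 22 of 31 were lower (median -0.051).

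Among mitotic and replication genes 30 of 42 were lower (median -0.068), which did not reach the 75% of the rule. Bub1b, a checkpoint kinase, read 9.46 and 9.16 (-0.29), with -0.36 on a second probe set. Kif2c, a mitotic kinesin, read 9.94 and 9.41 (-0.53), but its other probe sets differed by 0.062 and -0.17. Cdc20, an activator of the anaphase-promoting complex, differed by -0.45, -0.0017 and -0.67 on 3 probe sets. In the independent pair of arrays, c9,t11-CLA against DMSO, 100% were higher, with a median of 0.39. The median of -0.068 is smaller in size than this, but that pair differs by a treatment and gives no measure of the spread between like arrays. The DNA damage target Cdkn1a, the cell cycle inhibitor p21, read 12.02 and 11.96, with a difference of 0.089 on a second probe set.

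Interferon-stimulated genes, which a cell raises on sensing foreign or misplaced nucleic acid, were higher in 26 of 34 cases, with a median of 0.061, or 0.039 with probe sets averaged, which did not meet the rule. Adar, an RNA-editing enzyme, read 8.77 with ethanol and 9.07 with tenofovir (0.30), with 0.061 on a second probe set. Gbp7, a guanylate-binding protein, differed by 0.23 and Oasl2 read 6.56 and 6.77 (0.22), while Stat2, a factor of the interferon response, read 7.32 and 7.08 (-0.24). For Oasl2 both values lay under the 7.61 to 8.58 of the arrays with ritonavir. The sensors of nucleic acid themselves had a median of 0.053 with 10 of 16 higher: the DNA sensor Cgas differed by 0.15 and Ifi204, an interferon-induced DNA-binding protein, by -0.44. Among cytokines and chemokines 14 of 24 were higher, Ccl8 read 7.07 and 7.47 (0.40), and Ccl2 differed by 0.10. Il6 and Fgf21 were under the detection level on both arrays.

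Markers of other cell types were mostly near or under the detection level. Leukocyte markers were detected for 6 of 13 genes, 5 of them lower, with a median of -0.16, or -0.095 with undetected members included. The macrophage lysozyme Lyz2 read 6.76 and 6.36 and the macrophage marker Cd68 6.87 and 6.75, and the defining genes Ptprc and Itgam were under the level. Epithelial markers were lower for 7 of 7 detected genes of 11 measured, with a median of -0.17. Epcam, an adhesion molecule, read 10.25 and 10.03 (-0.22), and the epithelial cadherin Cdh1 was under the level at 2.71 and 2.91. Endothelial and muscle markers were detected for 3 of 9 and 4 of 13 genes, with Pecam1, Cdh5, Myod1 and Myog under the level. The 4 detected muscle genes, too few for the rule, had a median of 0.16, the highest of the 73 lists, against 0.029 for the endothelial ones. Myoglobin (Mb) read 7.43 and 7.72 (0.29, with -0.062 on a second probe set), desmin (Des) 8.98 and 9.15 (0.17), the muscle creatine kinase Ckm 7.07 and 7.22 (0.15) and skeletal actin (Acta1) 6.76 on both arrays. The part of other cell types in the differences was not tested.

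Agreement between probe sets separates shared differences from those of single probe sets. Among 5191 genes with several detected probe sets, 18 (0.347%) had all of them at least 0.2 higher and 30 (0.578%) all at least 0.2 lower. Over these genes the difference of the second probe set correlated with that of the brightest at r = 0.19 (Spearman's rho 0.20), across genes that share both arrays. Where both probe sets lay above the upper quartile of the table, 2304 genes, r was 0.33. A second probe set lay on the same side for 12 of 23 genes whose brightest was at least 0.32 higher, and 0 of these second probe sets reached 0.32. For genes at least 0.32 lower it was 39 of 52, and 4 reached it.

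**Figure D4:**
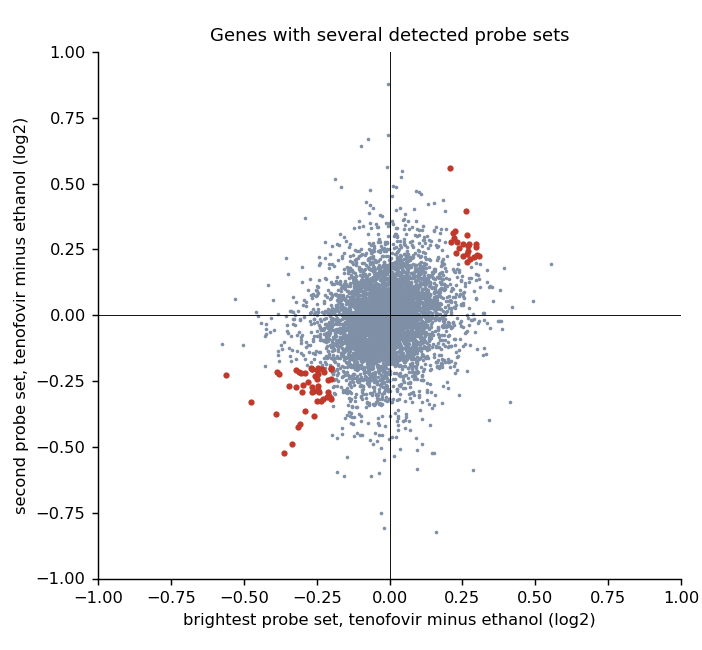
Difference between the tenofovir and the ethanol array (log2) of the second brightest against that of the brightest detected probe set, with 1 point per gene (5191). The cloud is nearly round, with r = 0.19, and in the red points both probe sets lie at least 0.2 from 0, 23 genes on the higher side and 48 on the lower.

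Of the genes whose probe sets agreed upward, Cryab, a small heat shock protein, read 9.25 with ethanol and 9.55 with tenofovir, with differences of 0.30 and 0.27, while the arrays with ritonavir read 10.68 to 11.68. The mean of all its probe sets, undetected ones included, was 0.17. Uros, an enzyme of haem synthesis, differed by 0.27 and 0.30, and Pfdn5, a subunit of the chaperone prefoldin, by 0.26 and 0.40. Il6ra, the interleukin 6 receptor, read 8.31 and 8.61 and differed by 0.30 and 0.26, and its tenofovir values were above all other arrays. The lysosomal enzyme Idua differed by 0.25 and 0.27 and the chemokine Ccl9 by 0.23 and 0.32. Ranbp3l read 9.53 and 9.76 (0.23 and 0.24), while the arrays with ritonavir read 5.36 to 5.94. Mrpl41, Mrpl50 and Ndufb8, described above, are 3 of the 15 genes highest by this measure.

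Downward, the differences were somewhat wider. Scai, a repressor of invasive cell migration, read 7.43 with ethanol and 6.96 with tenofovir, with differences of -0.48 and -0.33, and tenofovir was the lowest of the 6 arrays for both probe sets. The dimmer probe set read 6.84 with ethanol and 6.51 with tenofovir, the latter under the detection level. It was detected through its ethanol value alone and so could only lie on the lower side. With its undetected probe sets included, the mean for Scai was -0.048. Ipo4, an importin, read 10.61 and 10.05 and differed by -0.56 and -0.23. Washc2, a subunit of the WASH complex on endosomes, was lower on 3 probe sets, by differences of -0.28, -0.26 and -0.32. Sfi1, a centrosome protein, differed by -0.34 and -0.49 close to the detection level (-0.15 on the brightest with values raised to it). Per2 and Bub1b belong here too, as do Hif1an, the asparagine hydroxylase that restrains hypoxia-inducible factor (-0.24 and -0.29), and Crtc2, a coactivator of cAMP-responsive genes (-0.25 and -0.24). Zfp592, a zinc finger gene, had 3 probe sets between -0.27 and -0.25.

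The widest differences of all lay on probe sets whose gene had a brighter one that did not share them. Of 20475 named and detected probe sets, 38 (0.186%) were at least 1.5-fold apart, and 27 of these had a brighter detected probe set of the same gene. In 0 of the 27 did the brightest probe set reach 1.5-fold. Of the others, Wdr66 read 5.91 with ethanol and 6.58 with tenofovir (0.67). It is not among the genes counted above, as its brightest probe set over 6 arrays was undetected. The genes named next were chosen after their values were seen. Psma1, a proteasome subunit, read 13.23 and 13.22 on its brightest probe set and 7.58 and 6.43 on a dim one (-1.15, or 2.21-fold lower), the widest difference in the table of named probe sets. Col1a2 read 14.40 and 14.39 on the brightest and 6.82 and 5.995 on a dim one (-0.83). Cryl1 differed by -0.25 on its brightest and by 0.64 on its dimmest. For Fabp4, the 3 probe sets that read lower stood at 13.77, 11.03 and 11.04 with ethanol.

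**Figure D5:**
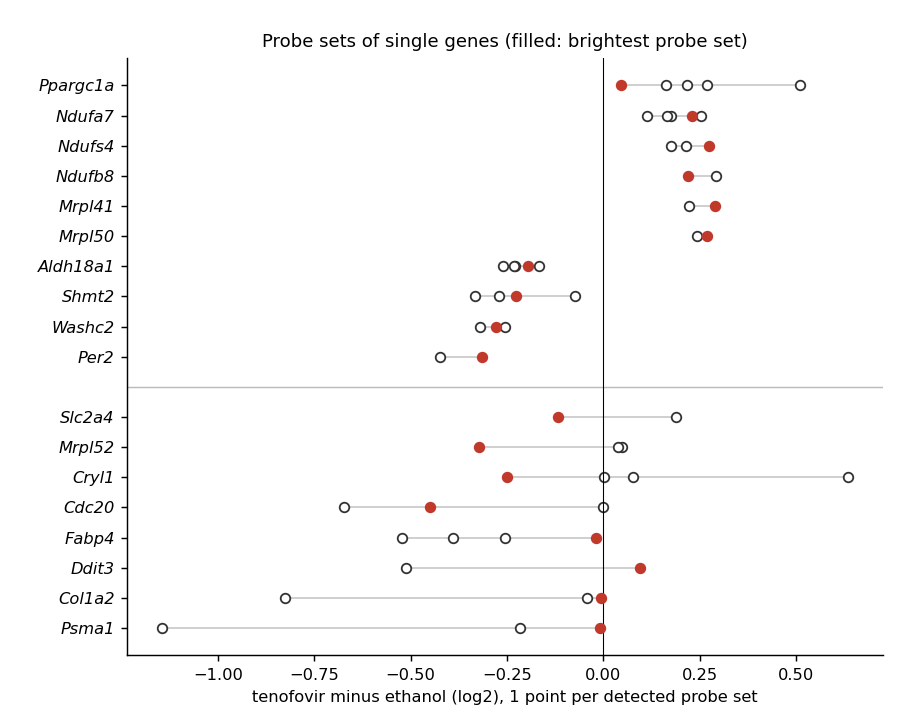
Difference between the tenofovir and the ethanol array (log2) for each detected probe set of single genes, the brightest filled red and the others open, with a grey line over their range. In the upper block all probe sets of a gene lie on one side of 0, as the 5 of Ndufa7 and of Aldh18a1. In the lower block they are spread or lie on both sides, as for Psma1, from -1.15 to -0.0088.

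Set beside the pair of arrays that differ by c9,t11-CLA against DMSO, both with ritonavir, some displaced lists had medians of opposite sign and others did not. Clock genes had -0.099 for tenofovir and 0.13 for c9,t11-CLA. Collagens had -0.080 and 0.092, glucocorticoid targets -0.062 and 0.085, and adipogenic factors -0.066 and 0.12. Targets of ATF4 had -0.065 and -0.062 and interferon-stimulated genes 0.061 and 0.086, close to each other in both cases. Near 0 for c9,t11-CLA were ATP synthase (0.077 and 0.0016), brown fat markers (0.13 and 0.0034) and leukocyte markers (-0.16 and -0.026). Epithelial markers had -0.17 and 0.10. Differences between these pairs were not tested. Of the 73 lists, 67 had at least 5 detected members and 64 of those had medians within 0.1 of 0.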

How the data were processed

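Gene expression was measured on 6 Affymetrix mouse arrays of 3T3-L1 cells, 1 per group, each with RNA pooled from 4 replicate experiments, per the labels' protocols. The authors deposited 1 table of log2 values for 45101 probe sets, between 2.17 and 15.01, made with RMA in Affymetrix Expression Console according to the submitters' processing notes. The version and settings of RMA are unstated in the labels and headers used here. This method equalises the arrays' distributions, so a shift shared by most genes would be removed.

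Of the probe sets, 34958 had 1 symbol in the platform's annotation (34754 updated by gene identifier to RefSeq, 204 as listed), 932 had several and were left out, and 9211 were not listed and are unnamed here. The brightest probe set over 6 arrays stood for each of 18194 genes, and 12041 genes reached 6.55, the table's median, on at least 1 of the 2 arrays. This level is a convention, since the table holds no detection calls.

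Differences were counted past 0.32 (log2) and 1.5-fold, probe sets of a gene were compared, and 73 gene lists were described by counts and medians. The members and lists were chosen with earlier results of these data known, and the pattern for genes of mitochondrial DNA was adapted to the symbols in the table. Named genes are those at least 1.5-fold apart, the 15 per direction whose probe sets agree most widely, up to 3 members per direction of a list, and 26 genes of fat cell and drug biology. Of these, Gdf15 and Isg15 have no named probe set here, and 1 gene is not reported here. Genes named outside this rule to show probe sets or neighbours, such as S100a9, Cryl1, Col1a1, Arntl or Ppargc1a, were chosen after their values were seen. Counting and list rules were tested on simulated data. Other settings tried were the mean over a gene's probe sets, no probe sets with a cross-hybridising suffix, 4 settings for low values, quantile normalization again, a lowess trend (span 0.3) removed, and other thresholds. The software was Python 3.11.15, with pandas 2.3.3, numpy 2.4.6, statsmodels 0.14.6 and matplotlib 3.10.9.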

Additional observations from a re-analysis of the deposited data

Results flagged for a closer look

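Some signals lay in probe sets outside the named genes. The 18S ribosomal RNA control probe sets were higher on the tenofovir array by 0.41 (3′ part), 0.87 (5′ part) and 0.68 (middle), past the 95% range of the detected genes, which ended at 0.26. The 24 poly-A spike-in probe sets had a median difference of 0.33, with all 24 higher. Both are above the hybridisation controls, whose median was -0.016, and for both the ethanol array was the lowest of 6 in nearly every case (23 of 24 and 3 of 3).

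Of 2022 detected probe sets without a listed gene, 2 were at least 1.5-fold apart, the widest upward by 0.78. At least 0.32 apart were 44 upward and 60 downward, 5.14% of them. Of 20475 named and detected probe sets, 258 were that far apart upward and 377 downward. The share of named genes, 2.24%, counts only the brightest probe set of each gene and is not a like measure.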

How the results depend on the processing

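No paired analysis was possible because each group has 1 array. The 12 displaced lists were recomputed under 8 alternatives: 75 of these values kept the rule, 17 kept their direction without meeting it, none changed direction, and 4 could not be computed with fewer than 5 detected members (epithelial markers without cross-hybridising suffixes, and epithelial, leukocyte and brown fat markers under the stricter filter). Complex I and mitochondrial ribosomal genes met the rule under all 8, and brown fat markers under the 7 that gave a value. With the mean of all probe sets the rule was not met by clock genes (-0.036), adipogenic factors (-0.043), ATF4 targets (-0.064), interferon-stimulated genes (0.039) and ATP synthase (0.048). Without suffixed probe sets it was not met by leukocyte markers (-0.11) and adipogenic factors (-0.048). Without a filter on low values it was not met by epithelial markers (-0.17), leukocyte markers (-0.095), collagens (-0.029), glucocorticoid targets (-0.050) and interferon-stimulated genes (0.058), since undetected members enter. Under the stricter filter, level 8.77, adipogenic factors had -0.055. Repeated quantile normalization gave adipogenic factors -0.045 and glucocorticoid targets -0.046, removal of the lowess trend gave glucocorticoid targets -0.048, and values raised to the detection level gave ATF4 targets -0.057. The cause was not tested.

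Genes at least 0.32 apart numbered 79 higher and 74 lower with the mean of all probe sets. They numbered 488 and 345 without a filter and 24 and 54 under the stricter one. Raising low values to 6.55 gave 95 and 114. Genes at least 1.5-fold apart numbered 45 without a filter, 3 under the stricter one and 0 at a threshold of 2-fold. Genes whose probe sets all lay on one side numbered 418 at 0.1 each and 3 at 0.3. Repeated quantile normalization turned the split at 0.32 to 149 higher and 126 lower. With the mean of all probe sets Slc2a4 had 0.036, Ddit3 -0.21, Scai -0.048, Zfp712 0.43 and Firre -0.31. Raised to the detection level, H3f3a had -0.21 and Slc16a14 0.14. Signal near background limits the dim genes most.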

Other observations

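Long noncoding RNAs, a class without a list of its own above, were higher on the tenofovir array for 208 of 345 detected genes (60.3%), with a median of 0.033, against 46.1% of all genes. At least 0.32 apart were 13 upward (3.77%) and 8 downward (2.32%), against 1.07% and 1.17% of all genes. That share depends on level: 164 of 3011 genes in the dimmest of 4 equal groups by mean level were that far apart, and 20 of 3010 in the brightest. The level of the long noncoding RNAs was not compared with that of other genes, and its part in these counts was not tested.

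Several groups central to fat cells and their lysosomes had medians within 0.1 of 0. Fatty acid oxidation genes were higher in 16 of 24 cases (median 0.041), cholesterol synthesis genes in 10 of 22 (median -0.026) and vacuolar ATPase subunits in 8 of 17 (median -0.0030). Insulin signalling genes were higher in 9 of 22 cases, with a median of -0.015, and autophagy genes in 12 of 28, with a median of -0.013.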
